A study of Mus musculus with 2 samples.

Results

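Surface proteins were read out in 2 mouse lung single-cell libraries with 18 oligonucleotide tags, which are all the rows of the deposited matrices that are not genes, 18 of 33714 features. Of these, 15 are antibodies to mouse antigens (among them CD4, CD8a, CD11b, CD45, CD45R/B220, CD117, NK1.1, CD11c, Ly6G, CD196, FceRIa, CD127, CD335 and KLRG1). A further 2 tags, RTK2758 and RTK4530, are isotype controls that recognise no mouse antigen. The last is PE-Streptavidin, which binds biotin and is no antibody, so that the name surface antibody tags holds for 17 of the 18. The lung cells came from adult mice on a C57BL6/J background, either with a germline deletion of the transcriptional repressor GFI1 (label GFI1 KO) or wild type (label GFI1 WT), were sorted as live cells and loaded with 10x Genomics 3′ chemistry. The labels give 1 library per genotype and do not state the number of mice in it. Variation among mice was thus not measured, and effects of genotype, mouse and library cannot be told apart. How the cells were stained with these tags, and which biotin-bearing reagent PE-Streptavidin met, is not given in the sources used here.

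An antibody tag is an antibody that carries a short DNA barcode with a capture sequence, so that the barcode is copied in the same droplet as the cell's mRNA and counted as unique molecular identifiers (UMIs). The count depends on how much antigen is on the surface, and also on antibody that sticks to a cell without its antigen, through Fc receptors or by charge, or that floats free in the droplet. Isotype tags report that second part. The matrices name each tag but do not spell out its barcode, so the tags are given by identifier: Ms.CD4 is ADT_B0001, Ms.CD8a is ADT_B0002, HuMs.CD11b is ADT_B0014, Ms.CD45 is ADT_B0096, HuMs.CD45R_B220 is ADT_B0103, PE_Streptavidin2 is ADT_B0952 and the isotypes are ADT_B0238 (RTK2758) and ADT_B0095 (RTK4530). The lung is a mixed tissue in which lymphocytes, monocytes, granulocytes and resident macrophages lie among endothelial, epithelial and mesenchymal cells. Each tag has therefore cells that should carry its antigen beside cells that should lack it.

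After filtering, 10495 cells of the GFI1 KO label and 19342 of the GFI1 WT label remained. The tags took 22722065 and 32804283 UMIs, or 16.3% and 16.8% of all UMIs, with a median of 1915 and 1227 tag UMIs per cell. Median gene depth was 11076 and 6217 UMIs. The CD45 tag alone took 54.8% and 48.6% of the tag UMIs, and the isotype RTK4530 took 0.0615% and 0.0625%. Transcripts of Gfi1 were counted at 2.92 and 2.90 CPM (UMIs scaled to a common total per library or cell type), so RNA of the targeted gene did not tell the labels apart and each library is called by its label alone. The libraries shared 74 cell barcodes. Cells were assigned to 16 types by RNA markers that leave out every tag's own gene, with CD4, CD8 and γδ subsets within T cells, and the type names below mean cells gated in this way. Cells that passed the gates of 2 lineages, 413 and 1882, were set aside. Cell makeup differed widely: 4711 classical monocytes against 359, 79 neutrophils against 1576, and 111 endothelial cells against 2313 in the KO and WT labels.

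The background set by the isotypes was not even across cell types. RTK2758 averaged 1.07 UMIs per CD8 T cell labelled GFI1 KO and 2.54 in those labelled WT, and 1.79 and 2.81 per B cell. In endothelial cells it averaged 29.3 and 16.6, and in interstitial macrophages 29.4 and 15.5. RTK4530 was lower in every one of those types, at 0.143 and 0.362 in CD8 T cells and 3.35 and 1.88 in endothelial cells. Endothelial cells and interstitial macrophages thus held the highest isotype counts. Over the endothelial cells of the KO label, 13 of the other 17 tags had a rank correlation above 0.8 with RTK2758, and in the WT label 6 of 17 did.

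B220, the CD45 isoform of B cells, was high on gated B cells and near background on T cells. It averaged 266 UMIs per B cell in the KO label (10th to 90th percentile of cells 106 to 421) and 155 in the WT label (49.8 to 255). T cells averaged 3.33 and 3.99. The ratio of B cells to T cells was 79.7 (95% interval 76.5 to 83.1) and 38.9 (38.2 to 39.7), and 99% (98.2 to 99.6) and 94.8% (93.9 to 95.5) of B cells lay above the 99th percentile of T cells. All such intervals cover counting error only, and the percentiles of cells show how widely cells of a library differ. Plasmacytoid dendritic cells, which are known to carry B220, came next at 116 (16 cells) and 85.3 (117 cells). NK cells had 16.1 and 8.35.

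The T cell co-receptor tags separated the RNA-gated subsets. CD8a, part of the co-receptor for MHC class I, averaged 470 UMIs on CD8 T cells in the KO label (226 to 746) and 419 in the WT label (171 to 626), and 1.70 and 3.38 on B cells. Of the CD8 T cells, 97.3% (95 to 98.8) and 96.4% (95.1 to 97.4) lay above the 99th percentile of B cells. CD4, the co-receptor for MHC class II, averaged 201 and 162 UMIs on CD4 T cells and 0.648 and 1.32 on B cells. Its spread was wide: the 10th percentile of CD4 T cells was 0 and 0.3 and the 90th 392 and 289, and 69.3% (63 to 75.1) and 80.6% (77.7 to 83.2) lay above the B cell percentile. The CD4 subset was gated on RNA markers other than Cd4. On these cells the CD8a tag alone was above its percentile in 8 of 238 cells of the KO label and 69 of 824 of the WT label.

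Among all gated T cells, the CD4 tag alone was above the B cell percentile in 28.5% (25.1 to 32) in the KO label and 41.2% (39.3 to 43.2) in the WT label. The CD8a tag alone was above it in 50.4% (46.6 to 54.1) and 49% (47 to 51), and both tags in 2% and 1.63%. Neither tag was above it in 19.2% (16.3 to 22.3) and 8.17% (7.12 to 9.33). In those cells with neither tag, Trdc, the constant gene of the T cell receptor δ chain, reached 959 and 296 CPM, against 0.913 and 10.7 CPM in cells with the CD4 tag alone and 21.2 and 11.4 CPM with the CD8a tag alone. Of the cells gated as γδ T cells by Trdc, 59 of 65 in the KO label and 70 of 105 in the WT label carried neither tag. The CD4 tag alone was on 1 of 65 and 27 of 105, which were 1.54% (0.0389 to 8.28) and 25.7% (17.7 to 35.2). This gate asks only for Trdc without Cd8b1. Trdc was lower in the gated cells with the CD4 tag alone, at 175 and 318 CPM, than in those with neither tag, at 1944 and 807 CPM. All cells of this gate held 2.55 and 32.9 CPM of Cd4. Whether the cells with the CD4 tag are γδ T cells was not tested. On NK cells, which did not set the cut, the CD4 tag alone was above it in 0 of 164 and 12 of 1789 cells. Gene depth of the γδ T cells was alike, with medians of 5493 and 6303 UMIs.

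Outside T cells, the CD4 and CD8a tags were next highest on plasmacytoid dendritic cells, which make type I interferon. CD4 averaged 167 and 88.3 UMIs there and CD8a 143 and 55.3. Both tags were above the B cell percentile on 10 of 16 and 43 of 117 of these cells, against 2 of 164 and 1 of 1789 NK cells. With 16 cells in the KO label the interval of that share ran from 35.4% to 84.8%.

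CD127, the interleukin-7 receptor α chain that keeps lymphocytes alive, was a weak tag. It averaged 18.1 UMIs on T cells in the KO label (3 to 35) and 16.3 in the WT label (6 to 28), 4.51 and 2.42 times the 4.02 and 6.76 on B cells. Only 16.5% and 9.11% of T cells lay above the B cell 99th percentile. In the WT label, 85 group 2 innate lymphoid cells (ILC2), which depend on interleukin-7, averaged 29.1 UMIs, or 7.76 times RTK2758 in the same cells. The highest raw means, 75.3 and 39.2, were on interstitial macrophages and were 2.56 and 2.53 times RTK2758. In raw counts CD127 was thus highest in interstitial macrophages, where the isotype was also high. Il7r stood at 149 and 68.5 CPM in these macrophages and at 1293 and 1246 in T cells. B cells had 32.9 and 19.1 CPM and endothelial cells 4.68 and 3.43. What part antigen and background have in the macrophage level was not tested. Relative to the isotype, CD127 was highest in CD8 T cells of the KO label, at 17.3, and in ILC2 of the WT label.

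On NK cells, cytotoxic innate lymphocytes, 3 receptors were tagged and they differed in strength. NK1.1, an activating receptor of C57BL/6 NK cells, averaged 75.8 UMIs in the KO label (28 to 125) and 31.9 in the WT label (13 to 55), against 1.15 and 2.14 on B cells. Of the NK cells, 99.4% and 95.8% lay above the B cell 99th percentile. KLRG1, an inhibitory receptor of mature NK cells, averaged 62.1 (3 to 154) and 27.7 (1 to 67), with 75% (67.7 to 81.4) and 62.3% (60 to 64.6) above it, so that its level varied over a wide range within NK cells. ILC2 of the WT label carried more KLRG1 than NK cells, 46.5 UMIs. CD335, the natural cytotoxicity receptor NKp46, averaged 16.7 and 13.1 on NK cells and 4.53 and 7.03 on B cells, and no more than 4.27% and 1.17% of NK cells passed the B cell percentile. Raw CD335 means were highest on endothelial cells, 84.1 and 49.3, where they were 2.86 and 2.97 times RTK2758, while on NK cells they were 10.3 and 5.38 times RTK2758, the highest of the 16 and 17 types with at least 10 cells.

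PE-Streptavidin differed widely between cell types although no antigen is in its name. It averaged 1201 UMIs on 18 basophils and mast cells in the KO label and 489 on 14 in the WT label, 895 and 418 on NK cells, and 546 and 209 on endothelial cells. B cells had 26.2 and 34.7, and alveolar macrophages 22.6 and 43.6. RTK2758 averaged 29.3 and 16.6 in endothelial cells, against 1.79 and 2.81 in B cells and 1.62 and 2.43 in NK cells. Relative to this isotype, endothelial cells thus lay close to B cells, while NK cells stayed well above them. The means lay well above the medians: the median NK cell had 305 and 197 UMIs, with 90th percentiles of 2980 and 541, and the median endothelial cell 122 and 119. Above the B cell 99th percentile lay 96.3% (92.2 to 98.6) and 79.5% (77.6 to 81.4) of NK cells. Across cell types, the gene whose level was most like this tag, by Pearson correlation of log2 values among all 18296 and 20534 genes with at least 10 UMIs, was Itga2 in each library, with r of 0.85 over 16 types and 0.84 over 17. Itga2 encodes integrin α2 (CD49b), a surface protein of NK cells, basophils and platelets. With the tag divided by RTK2758, Itga2 was not among the first 10 genes in the KO label, where Vmn2r84 (0.92) came first, and stood at rank 8 in the WT label (0.83). This ranking was added after the tag's values were seen, and the types share library and depth. Itga2 stood at 514 CPM in NK cells, 121 in basophils and mast cells and 147 in endothelial cells of the KO label, at 981, 228 and 189 CPM in the WT label, and at 0.495 and 0.882 CPM in B cells. Within NK cells the order of cells with and without an Itga2 UMI differed between the libraries: the tag averaged 861 UMIs in KO-label NK cells with an Itga2 UMI and 1009 in those without, and 427 and 349 in the WT label.

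The pan-leukocyte tag CD45, a receptor tyrosine phosphatase, was higher on every gated leukocyte type than on structural cells. On T cells it averaged 935 UMIs in the KO label (506 to 1360) and 708 in the WT label (438 to 975), against 24.6 and 14.7 on endothelial cells, where it was below RTK2758 at 0.839 and 0.885 of its level. Mesenchymal cells had 13.8 and 12.8 and epithelial cells 16.4 and 6.69. The order among leukocytes ran from alveolar macrophages, 1749 and 1586, down to basophils and mast cells, 174 and 153, with B cells at 665 and 513 between them. Of T cells, 99.9% and 99.3% lay above the endothelial 99th percentile.

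CD11b, the integrin αM chain of myeloid adhesion, averaged 846 UMIs on classical monocytes of the KO label (405 to 1330) and 554 of the WT label (273 to 885). Cells gated as neutrophils were higher, at 977 and 1106, though most of those in the KO label lay outside the neutrophil cluster, and nonclassical monocytes lower, at 593 and 476. NK cells held 85.1 and 55.1. B cells averaged 6.64 and 11.6 but their medians were 4 and 2, and the ratio of classical monocytes to B cells was 127 (124 to 131) and 47.7 (47.1 to 48.2). Alveolar macrophages, known for little CD11b at rest, averaged 13.9 and 23.4, or 3.66 and 2.36 times RTK2758. CD11c, the integrin αX chain, showed the opposite pattern in the lung macrophages. It averaged 1102 UMIs on alveolar macrophages of the KO label (500 to 1794) and 1037 of the WT label (456 to 1715), 932 and 713 on conventional dendritic cells, and 33.1 and 78.9 on classical monocytes. In each library 99.9% of alveolar macrophages lay above the B cell percentile.

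Ly6G, a GPI-anchored protein of mature neutrophils, was the tag whose target level differed most between the labels. On the 1576 neutrophils of the WT label it averaged 260 UMIs (106 to 428), 308 times the 0.846 of B cells, and 98.4% (97.6 to 98.9) lay above the B cell 99th percentile. On the 79 cells gated as neutrophils in the KO label it averaged 5.47 UMIs with a median of 1 (0 to 17), against 0.350 on B cells, and 32.9% (22.7 to 44.4) lay above the percentile. Most of those 79 cells did not group with the WT neutrophils: 70 fell in other clusters, 55 of them in those of classical and 12 in that of nonclassical monocytes, with a mean of 4.83 UMIs over the 70, and 9 in the cluster that holds 1421 of the WT neutrophils. Those 9 cells had between 3 and 20 UMIs and a mean of 10.4, with a CD11b mean of 755. Over all cells, 16 in the KO label and 1862 in the WT label had 30 or more Ly6G UMIs. Ly6g RNA was sparse in each label, with 8 UMIs in the 79 cells and 180 in the 1576. Of these UMIs, 5 of the 8 lay in the 9 KO-label cells of the neutrophil cluster. In the WT label 162 of the 180 lay in the 1421 cells of that cluster. Per cell of that cluster, Ly6g RNA was thus not lower in the KO label, though this rests on 5 UMIs.

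The remaining antigen tags were CD117, FceRIa and CD196. CD117, the stem cell factor receptor Kit, averaged 187 UMIs on endothelial cells of the KO label (41 to 414) and 193 of the WT label (38 to 416), and 2.64 and 5.24 on B cells. Relative to RTK2758 it stood at 6.37 and 11.6 in endothelial cells, against 1.48 and 1.86 in B cells, so that the difference between these types shrank from 70.7 to 4.32 times in the KO label and from 36.9 to 6.25 times in the WT label when set against the isotype. Conventional dendritic cells had 55.2 and 34.6 UMIs, and ILC2 of the WT label 31.6. Interstitial macrophages averaged 38.9 and 103, but their medians were 5.50 and 16.0, with 0 and 2 Kit UMIs in 22 and 165 cells. Relative to RTK2758, conventional dendritic cells of the KO label stood above endothelial cells, at 6.80. This order depends on the isotype used. RTK4530 averaged 1.28 UMIs in these dendritic cells and 3.35 in endothelial cells, and relative to it endothelial cells stood higher. FceRIa, the α chain of the high-affinity IgE receptor of basophils and mast cells, averaged 56.3 UMIs on the 18 such cells of the KO label and 62.4 on the 14 of the WT label, against 2.45 and 4.62 on B cells. Per RTK2758 that was 77.9 and 20.3, and in no other type with at least 10 cells did it exceed 2.03 in the KO label or 1.74 in the WT label.

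CD196, the chemokine receptor CCR6 of B cells and type 17 lymphocytes, was the least specific. It averaged 11.3 UMIs on B cells of the KO label (3 to 19.4) and 13.6 of the WT label (5 to 21), and 6.13 and 8.90 on NK cells, a ratio of 1.84 (1.73 to 1.97) and 1.53 (1.5 to 1.56). Only 1.17% and 6.71% of B cells passed the NK cell 99th percentile. That cut was 64.7 UMIs in the KO label, from 164 NK cells, and 24 in the WT label, from 1789. The shares of the labels thus rest on unlike cuts. Interstitial macrophages averaged 116 and 52.2 CD196 UMIs and endothelial cells 114 and 75.5. Set against RTK2758, B cells ranked first, at 6.30 and 4.84, but the other types lay close, with endothelial cells at 3.89 and 4.55. Across types CD196 followed RTK2758 with r of 0.98 in each library, and CD335 with r of 0.96 in each.

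Counted over the 15 antigen tags, 12 in each library stood at least 5 times higher in their target type than in their reference type. By these raw means the same 3 fell short in each library, CD196, CD127 and CD335. The 12 of the KO label include Ly6G, at 5.47 UMIs with a median of 1. Its target there was 79 gated cells, of which 70 lay outside the neutrophil cluster. Divided by RTK2758, in the KO label CD127 passed at 6.34 and CD117 fell short at 4.32. That holds for RTK2758 only. RTK4530 averaged 3.35 UMIs in endothelial cells and 0.275 in B cells of the KO label, and these counts were not repeated with it. With 90% of target cells above the reference 99th percentile as the mark, 9 tags passed in the KO label and 10 in the WT label. The target type had the highest mean of all types for 10 and 9 of the 15 tags, and for 13 and 12 when each mean was divided by that of RTK2758 in the same cells. Among the 10 of the KO label is Ly6G, at 5.47 UMIs against 4.86 on endothelial cells. For CD45 and CD11b, whose antigens are shared by several leukocyte types, the highest means were on alveolar macrophages and on neutrophils.

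The RNA of a tag's own gene was seen in part of the target cells. A Cd4 UMI was seen in 37.8% and 48.3% of CD4 T cells, a Cd8a UMI in 76.4% and 72.7% of CD8 T cells, a Klrg1 UMI in 45.7% and 42.9% of NK cells and a Ccr6 UMI in 30.5% and 24.5% of B cells. The background of these shares was low: in B cells of the WT label, 0.161% had a Cd4 UMI, 0.0645% a Cd8a UMI and 0.0323% a Klrg1 UMI, and 0 of 937 B cells of the KO label had a Cd4 UMI, which allows a share of up to 0.320%. Median depth was 3979 and 4279 gene UMIs in B cells, 5083 and 5869 in CD4 T cells, 7363 and 6450 in CD8 T cells and 5080 and 4111 in NK cells. Cells without an own-gene UMI still carried the tag for some targets: over 85% of them lay above the reference percentile for 9 of 15 tags in each library. Some of these shares rest on few cells, in the KO label 2 for FceRIa, 9 for NK1.1 and 14 for CD45. Of CD8 T cells without a Cd8a UMI, 88.6% and 86.7% lay above the B cell percentile of CD8a. For CD4 the share was 50.7% and 62.7%, and for KLRG1 58.4% and 44.5%. For the weak tags it was low, at 1.27% and 0.455% for CD127, 0% and 0.847% for CD335 and 0.768% and 5.38% for CD196, and for Ly6G it was 28.8% in the KO label. For CD127, CD335 and CD196 more target cells held an own-gene UMI than passed the tag's percentile, as with Ncr1, seen in 84.8% and 86.8% of NK cells. For Ly6G in the KO label the order was the reverse, with 7.59% of cells holding a Ly6g UMI and 32.9% above the percentile.

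Within the target type, tags were at least 1.5 times as high in cells with an own-gene UMI as in cells without for 7 of 15 tags in the KO label and 4 of 15 in the WT label. CD4, CD117, CD127 and KLRG1 were past this mark in each library. The other 3 of the KO label were CD196 (1.55), Ly6G (3.76, with 6 cells that held a Ly6g UMI) and NK1.1 (1.54, with 9 cells that held no Klrb1c UMI), and for NK1.1 the isotype RTK2758 differed by more, 2.52 times. KLRG1 averaged 89.8 UMIs in NK cells of the KO label with a Klrg1 UMI and 38.8 in those without, and 42.8 and 16.3 in the WT label, which are ratios of 2.31 and 2.62. RTK2758 differed between the same cells by 0.786 and 1.06 times. The CD4 tag averaged 315 against 131 UMIs and 213 against 114, ratios of 2.40 and 1.88, with RTK2758 at 1.57 and 1 times. For CD127, which was near background on B cells, the ratios were 4.43 and 1.93, with 88.7% and 91% of T cells holding an Il7r UMI. CD117 on endothelial cells gave 1.99 and 1.64, with RTK2758 at 1.28 and 1.16. At the other end, B220 gave 0.983 and 1.02 on B cells, where nearly all cells express Ptprc and the 3′ counts cannot tell its isoforms apart, and CD335 gave 1.11 and 1.09. Cells with an own-gene UMI were also deeper in each of these comparisons, for example 5485 against 4883 gene UMIs for KLRG1 in the KO label and 4446 against 3867 in the WT label. After thinning every cell to 1500 gene UMIs, 3 tags passed in the KO label (CD4 at 1.91, CD127 at 1.69 and KLRG1 at 1.5) and 1 in the WT label (KLRG1 at 1.83). The rank correlation of tag and own-gene UMIs over the cells of the target type ran from 0.04 (B220) to 0.53 (CD127) in the KO label and from 0.01 (B220) to 0.52 (KLRG1) in the WT label, a description over the cells of 1 library.

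Across cell types, tag and own gene followed each other closely for some tags and not for others. Over the 16 types of the KO label, the mean of the CD4 tag and Cd4 CPM had r of 0.96 on a log2 scale, and over the 17 types of the WT label 0.98. Cd4 was in each library the gene of all those tested with the highest r to the CD4 tag, and Cd8a likewise for the CD8a tag, with r of 0.89 and 0.93. Itgam ranked first for CD11b in the KO label (0.93) and stood at rank 10 in the WT label (0.88). Ptprc had r of 0.95 and 0.96 to CD45, at ranks 8 and 5, but -0.04 and 0.18 to B220. CD196 had r of -0.33 and -0.28 to Ccr6, CD335 0.04 and -0.16 to Ncr1 and CD127 0.08 and 0.19 to Il7r, the same 3 tags that fell short of their target. In all, the own gene was among the first 10 genes for 4 tags in the KO label and 5 in the WT label.

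Dividing each tag mean by the RTK2758 mean of the same cells, a choice made after the values were seen, brought the own gene among the first 10 for 8 and 9 of the 15 tags. Ncr1 then had r of 0.94 and 0.84 to CD335 and Il7r 0.77 and 0.80 to CD127. Fcer1a went from 0.53 and 0.71 to 0.99 in each library, Klrg1 from 0.75 and 0.81 to 0.95 and 0.98, and Kit from 0.55 and 0.51 to 0.81 and 0.77, at ranks 3 and 4. In the KO label Fcer1a UMIs were counted only in the 18 basophils and mast cells, so its r rests on that type. In the WT label 34 UMIs lay in 14 such cells and 2 in alveolar macrophages. Other genes also reached 0.99 to this tag in the KO label. Ccr6 rose to 0.52 and 0.21 only, and Ptprc to 0.25 and 0.28 for B220. For CD4 and likewise for CD45, r was 0.89 in the KO label and 0.95 in the WT label after the division. The points share a library, depth and in part marker genes, so no test was made.

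Between the labels, tag levels in the target types lay at 0.0210 to 2.38 times in the KO label relative to the WT label, with a median of 1.12, and 11 of 15 ratios were above 1. At least 1.5 times higher in the KO label were NK1.1 on NK cells (2.38, 2.33 to 2.42), KLRG1 on NK cells (2.24, 2.19 to 2.29), B220 on B cells (1.71, 1.70 to 1.72) and CD11b on classical monocytes (1.53, 1.52 to 1.53). Ly6G on cells gated as neutrophils, at 0.0210 (0.0191 to 0.0231), was the 1 tag at least 1.5 times lower. With cell types by clusters its ratio was 0.0401, from 9 cells of the KO label and 1431 of the WT label. CD45 on T cells was 1.32 times and CD4 and CD8a on their targets 1.24 and 1.12 times those of the WT label. The intervals come from counts of tag UMIs in 1 library per label and hold no difference between mice. For NK1.1 cells of the labels overlapped, with a 10th percentile of 28 in the KO label and a 90th of 55 in the WT label, while for Ly6G the 90th percentile of the KO label, 17, lay below the 10th of the WT label, 106.

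In the reference types, which should lack the antigen, 14 of 15 tags had a lower mean in the KO label, with a median ratio of 0.538. For CD11b on B cells, at 0.571, the medians ran the other way, 4 and 2 UMIs. Its 90th percentiles did too, at 12 and 8. B cells were the reference type of most of the 15 tags, so the ratios largely repeat the background of the same cells. In B cells 15 of all 18 tags had a lower mean in the KO label. CD4 on B cells was 0.490 times, CD8a 0.502, CD11c 0.527 and NK1.1 0.538 times the WT level. The exception was CD45 on endothelial cells, at 1.68. RTK2758 was lower in the KO label in 11 of 16 types, at 0.637 in B cells, 0.669 in NK cells and 0.382 in alveolar macrophages, and higher at 1.77 in endothelial cells, 4.41 in epithelial cells (14 and 39 cells) and 1.89 in interstitial macrophages (22 and 165 cells), where the medians ran the other way, 5 and 9 UMIs. In alveolar macrophages, 16 of the 18 tags were at least 1.5 times lower in the KO label while CD45 and CD11c, their own antigens, were at 1.1 and 1.06. In endothelial cells the direction turned, and 14 of 18 tags were at least 1.5 times higher. The counts changed with the scale. Divided by the reference mean, 12 of 15 tags were at least 1.5 times higher in the KO label. As a share of the cells' summed tag UMIs 0 were higher and 4 lower (CD117, Ly6G, CD196 and FceRIa). That sum holds all 18 tags, and so PE-Streptavidin. This tag averaged 546 and 209 UMIs in endothelial cells and 1201 and 489 in basophils and mast cells. The shares were not repeated without it. Ly6G alone was past the mark in the same direction on the 3 scales. All 3 scales use the same gated cells, and 70 of the 79 in the KO label lay outside the neutrophil cluster. A change of scale cannot show what part this difference in cells has in the ratio.

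NK cells showed this split within 1 cell type. NK1.1, KLRG1, PE-Streptavidin (2.14), B220 (1.93), CD11b (1.54) and CD45 (1.5) were at least 1.5 times higher in the KO label, 6 of 18 tags. Another 6 were at least 1.5 times lower, among them CD4 (0.393), CD8a (0.464), CD11c (0.625), Ly6G (0.467) and FceRIa (0.636). CD335 was at 1.28. CD11c differs from the other tags named as lower, since its gene Itgax was counted in NK cells and was lower as well. Itgax CPM was 0.127 (0.0609 to 0.236) times the WT level, from 10 and 695 UMIs. Cd4, Cd8a, Ly6g and Fcer1a had no UMI there in the KO label and at most 10 in the WT label. What part antigen and background have in the lower CD11c tag was not tested. As a share of the cells' tag UMIs, 0 of 18 tags were at least 1.5 times higher and 11 were lower, with NK1.1 at 1.38, KLRG1 at 1.3, CD11b at 0.899 and CD45 at 0.874. PE-Streptavidin, at 895 and 418 UMIs on NK cells, is part of that sum, and the shares were not repeated without it. The median NK cell had 1598 tag UMIs and 5080 gene UMIs in the KO label and 1005 and 4111 in the WT label. The part of these depths in the ratios was not tested.

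Tag and own-gene RNA often lay on different sides of 1 between the labels. Some sides are open, as the RNA intervals of Cd4 (0.966, 0.817 to 1.14) and Cd8a (0.946, 0.859 to 1.04) hold 1. The counts below were not set against those of unrelated values. In the target types 9 of 15 tags were higher in the KO label by mean UMIs per cell while the CPM of their gene was lower, and tag and gene lay on the same side of 1 for 4 tags. CPM is scaled to gene depth and the tag means are not. With the RNA also in UMIs per cell the counts were 7 and 6 of 15, as Cd8a (1.07) and Klrg1 (1.15) then lay on the side of their tags. NK1.1 was 2.38 times the WT level and Klrb1c 0.774 (0.714 to 0.839), at 714 and 922 CPM in NK cells. KLRG1 was 2.24 times and Klrg1 0.932 (0.779 to 1.11). B220 was 1.71 times and Ptprc 0.783 (0.753 to 0.813) in B cells. For CD11b, tag and gene lay on the same side, 1.53 and 1.11 (1.04 to 1.18), at 354 and 319 CPM of Itgam in classical monocytes. For Ly6G the tag was 0.0210 times and Ly6g 0.315 (0.134 to 0.634) in CPM, from 8 and 180 UMIs. In UMIs per cell Ly6g was 0.887, since the cells gated as neutrophils had a median of 11462 gene UMIs in the KO label and 3052 in the WT label. These values pool cells in and outside the neutrophil cluster, whose 9 KO-label cells held 5 of the 8 UMIs. PE-Streptavidin has no own gene and is in none of these counts. On NK cells it was 2.14 times the WT level by the mean and its median 305 against 197 UMIs. Itga2, picked from these data by its likeness to this tag, stood there at 514 (468 to 562) and 981 (959 to 1003) CPM. What the tag bound is not given, so these values do not compare a protein with its RNA.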

How the data were processed

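Live-sorted lung cells in 1 library per label were measured with 10x Genomics 3′ chemistry. The authors deposited raw UMI counts per gene or tag and called cell, with Cell Ranger 9.0.1 and GRCm39 in the submitters' processing notes, and no normalization. The study's methods state 2 samples per genotype, and 1 per genotype was analysed here. The study's methods give an average read depth per cell for the lung libraries. Staining of the lung cells with these tags is not given in the sources used here.

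The study's cell filter was applied, at 500 UMIs and 200 genes or more and at most 20% mitochondrial UMIs. A cell was assigned to the type with the largest share of its marker list detected, at 3 markers or more, and set aside if another lineage reached 50% of that share with at least 3. T cells with Cd8b1 and no Trdc were CD8, with Trdc and no Cd8b1 γδ, and with neither and 2 or more CD4 markers CD4 T cells. The genes of the tags served in no gate. The values of 1 antigen tag are not reported here, and counts over the tags include it. Each antigen tag had a target type and a reference type that should lack the antigen. The members, lists and types were chosen with earlier results of these data known. Named genes were the own gene of each tag, and Itga2, chosen after its values were seen.

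Levels are mean tag UMIs per cell, without normalization, so tag depth enters them. With 1 library per label, nothing was tested. Summed UMIs have exact Poisson intervals, shares exact Clopper-Pearson intervals and ratios exact conditional binomial intervals, all at 95% and for counting error only. A count of 0 allows up to 3 counts. Types with under 10 cells are not given. Doublets across lineages were handled by the 2-lineage gate, and removal of Scrublet calls is an alternative. Neutrophil, monocyte, macrophage and dendritic types counted as 1 lineage, and T cells, NK cells and ILC2 as another. Doublets within either were thus not set aside by the gate. Scrublet marked 4.31% of the WT-label cells gated as neutrophils and 9.09% of the 22 KO-label interstitial macrophages, but 0% of KO-label T cells. Clusters (alternative) used 2000 variable genes, 50 principal components, 15 neighbours and Leiden resolution 0.8, 38 clusters in all. Python 3.11.15, numpy 2.4.6, scipy 1.17.1, scanpy 1.11.5, leidenalg 0.10.2 and R 4.3.3 were used, and the calculations were tested on simulated data. Other alternatives were gates of 2 or 4 markers, all deposited cells, leaving out the top 1% of tag totals, medians, tag shares, thinning to 1500 UMIs, other thresholds, and division by RTK2758, which was added after seeing the data.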

Additional observations from a re-analysis of the deposited data

How the results depend on the processing

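Of the 68 recomputed counts of tags, 58 stayed within 1.5 times of the reported count. The counts of 12 tags at least 5 times above their reference type in each library stayed at 12 to 14 under every alternative run, though not with the same tags: divided by RTK2758, CD127 entered at 6.34 and CD117 left at 4.32 in the KO label. Counts of tags higher in cells with an own-gene UMI fell from 7 and 4 to 3 and 1 after thinning, which leaves fewer cells with a UMI, and to 4 and 1 at a mark of 2 times. Counts between the labels depended on the scale. As a share of tag UMIs, with PE-Streptavidin in the sum, 0 tags were higher in the KO label and 4 lower, in place of 4 and 1. Divided by the reference mean 12 were higher, divided by RTK2758 12 were higher and 2 lower, and at 2 times 2 were higher. The cause of these shifts was not tested. Among ratios of single tags, 263 of 266 target to reference ratios and 139 of 165 KO to WT ratios stayed on their side of the mark, and 0 were counted as reversed. That count does not cover ratios short of the mark that crossed 1. As a share of tag UMIs, the KO to WT ratio of CD335 on NK cells went from 1.28 to 0.743. That of CD8a on CD8 T cells went from 1.12 to 0.882. CD11b between the labels was 1.44 with cell types by clusters. No paired analysis was possible because each label has 1 library. Depth limits Ly6g, with 8 own-gene UMIs in the KO label, and the types of 14 to 22 cells.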

Other observations

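The cells that reached no gate, 64 with the GFI1 KO label and 119 with the GFI1 WT label, had a median of 800 and 368 tag UMIs and 1276 and 1166 gene UMIs. The epithelial and mesenchymal cells were the poorest in tags, with medians of 51.5 and 77.0 tag UMIs per cell in the KO label and 101 and 117 in the WT label, although their gene depth was 11868 and 5458 and 14125 and 6258 UMIs. No tag UMI was counted in 11 and 22 of the kept cells. The 413 and 1882 cells set aside for markers of 2 lineages had a median of 2615 and 2237 tag UMIs, against 1906 and 1168 in the cells of 1 lineage, and Scrublet marked 202 and 928 of them as doublets.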
